A study of Mus musculus with 9 samples.

Results

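Complex I of the mitochondrial respiratory chain was followed through 33 nuclear genes of its subunits, the Ndufa, Ndufb, Ndufc, Ndufs and Ndufv symbols on a list given for the work, out of 18303 genes in the count table. All 33 symbols were found, and 32 of them had enough counts to be tested, among 13322 genes tested in all. RNA had been sequenced from cells sorted as CD45+CD11b+F4/80+ from wounded skin of untreated mice with a C57BL/6J wild-type background, at day 4 (4 libraries) and day 14 (5 libraries). The 2 times stand for an early and a late phase of the wound, and the only factor that differs between the groups in the labels is the time. Sex and age are not given in the sources used here. Whether each library is from another animal is not said in the labels, and p-values here reflect only how much these samples vary, which can be technical variation.

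Complex I, also called NADH:ubiquinone oxidoreductase, takes electrons from NADH in the mitochondrial matrix, passes them along a chain of iron-sulfur clusters to ubiquinone, and pumps protons across the inner membrane. It has the shape of an L. The matrix arm holds the module that oxidises NADH and the module that reduces ubiquinone, and the membrane arm holds a proximal and a distal part with the proton pumps. Core subunits carry the cofactors and the chemistry, and accessory subunits surround, stabilise and help assemble them. Several core subunits of the membrane arm are encoded by mitochondrial DNA and are not analysed here. In macrophages, respiration through this chain is known to be used more by cells of repair states than by strongly inflammatory ones, and complex I can also be a source of reactive oxygen species.

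The total count per library ran from 17982630 to 57809914. The day 14 replicate 5 library stopped within the genome: of 808 genes with at least 50 counts in each other library that lie beyond the gene Aplp2 on chromosome 9 or on X and Y, 805 were at 0 in it. It was left out for such genes, which here are Ndufa1 and Ndufb11 on X. The genes of the sorted proteins were detected in all libraries, and the summed level of 10 macrophage markers was 18700 to 22200 CPM at day 4 and 20000 to 21600 at day 14. Of these 10, 4 were lower at day 14 (Fcgr1 by 2.14-fold, Cd68 by 1.38-fold, Itgam, which encodes CD11b, by 1.36-fold and Mertk by 1.27-fold) and 2 were higher (Ptprc, which encodes CD45, by 1.31-fold and Emr1, which encodes F4/80, by 1.3-fold), and Lyz2 made up the largest part of the sum. CPM, the count of a gene divided by the library's total and scaled to counts-per-million, was TMM-scaled, which removes differences in composition between libraries. Markers of other cells differed between the days: 11 of 16 fibroblast markers were lower at day 14 (summed level 10900 to 22100 CPM at day 4 and 6020 to 9790 at day 14). Higher were 9 of 11 dendritic cell markers (241 to 284 and 468 to 556) and 3 of 3 tested eosinophil markers (3.91 to 6.71 and 12.9 to 18.4). So were 5 of 6 tested keratinocyte markers (1.64 to 5.92 and 26.5 to 45.8) and 3 of 6 endothelial markers (40.2 to 47.3 and 28.7 to 67.1). Most of the keratinocyte sum at day 14 was Ehf, at 0.811 ± 0.292 CPM at day 4 and 27.7 ± 10.2 at day 14. Krt14 was at 0.445 ± 0.502 and 2.33 ± 1.23 CPM. None of 7 tested neutrophil markers passed the test (604 to 1650 and 238 to 1680). The 2 tested T and NK cell markers moved in opposite directions, Cd4 up (31.9 ± 1.51 and 53.8 ± 7.25 CPM) and Thy1 down (35.7 ± 13.4 and 17.6 ± 3.32 CPM). The T and NK sum (30.8 to 34.2 and 47.4 to 64.9) leaves out Thy1, which lies beyond the break, and was nearly all Cd4. No marker of these lists found in the table was at 0 in every library, but some were near it. Cd3e had at most 5 counts in a library and the eosinophil marker Epx at most 3. The part of these other cells in the results below was not tested.

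Among the 32 tested members, 8 were lower at day 14, 1 was higher and 23 did not pass the test (edgeR's quasi-likelihood test, Benjamini-Hochberg adjusted p under 0.05 over all genes tested). The 8 lower members, all accessory subunits, were Ndufv3, Ndufa2 and Ndufa7 of the NADH module, Ndufa3, Ndufa8 and Ndufa10 of the proximal membrane arm, and Ndufb8 and Ndufb9 of the distal membrane arm, and they differed by 1.19-fold to 1.35-fold. The higher member was Ndufa6 of the NADH module, by 1.2-fold. The members called make up 28.1% of those tested, against 31.0% of all genes, so a change as such was about as frequent as in the transcriptome. By direction, 25.0% of the members were lower against 14.9% of all genes, while 16.1% of all genes were higher. The members' median log2 fold change was -0.15 against 0.01 for all genes, and 25 of 32 members (78.1%) had a negative value against 48.7% of all genes. The genes were not chosen by their values, but earlier results of these data were known when the list was made, and nothing particular to the list is read from these shares. In bulk samples, fewer cells of a type and less RNA per cell cannot be told apart.

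**Figure D1:**
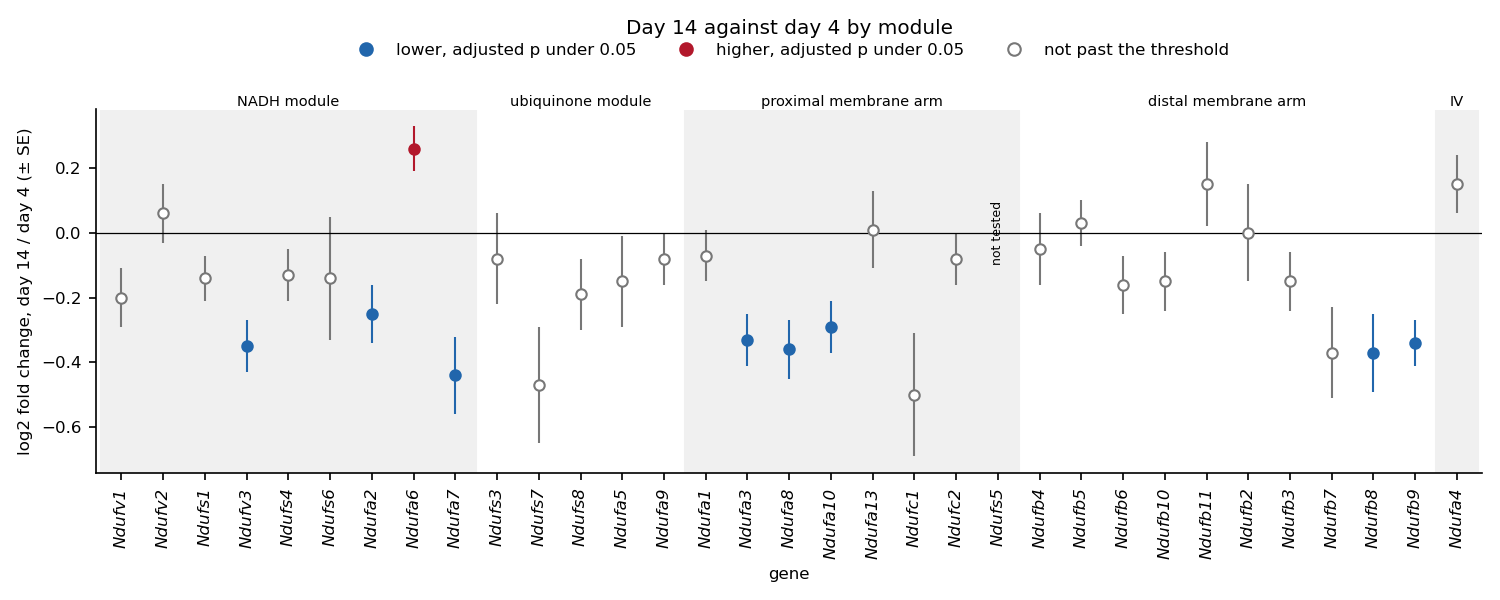
Log2 fold change of day 14 over day 4 (vertical axis, ± SE) for each of the 32 tested members, grouped by module of complex I along the horizontal axis, with Ndufs5 marked as not tested and Ndufa4 under complex IV. Filled points passed an adjusted p of 0.05, and the 8 lower members lie between -0.44 and -0.25 while Ndufa6 alone lies above 0 among the filled points.

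The promoter bases of 3 members are shown because they belong to the member that rose, Ndufa6, and to Ndufa3 and Ndufv3, which fell with no overlap between the days. Each run holds 200 bases of GRCm38.p6 from RefSeq in the gene's sense, and ends 51 bases before the start in the promoter table. Capitals mark the only match to a motif searched, the core of the NRF1 site.
Ndufa6 (chr15:82354342-82354541, minus strand): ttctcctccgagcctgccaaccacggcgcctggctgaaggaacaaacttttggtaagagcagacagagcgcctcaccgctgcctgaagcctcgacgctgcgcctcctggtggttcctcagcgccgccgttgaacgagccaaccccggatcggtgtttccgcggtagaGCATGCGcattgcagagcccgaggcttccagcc
Ndufa3 (chr7:3617123-3617322, plus strand): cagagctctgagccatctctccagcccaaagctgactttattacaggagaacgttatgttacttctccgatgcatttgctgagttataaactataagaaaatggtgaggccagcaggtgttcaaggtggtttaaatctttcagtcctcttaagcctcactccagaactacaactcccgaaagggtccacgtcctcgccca
Ndufv3 (chr17:31519865-31520064, plus strand): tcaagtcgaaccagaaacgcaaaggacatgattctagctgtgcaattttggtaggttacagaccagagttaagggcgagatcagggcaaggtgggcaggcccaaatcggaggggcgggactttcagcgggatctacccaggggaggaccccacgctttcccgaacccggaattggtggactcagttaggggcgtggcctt
Of the 33 members, 30 had an entry in the RefSeq promoter table, and Ndufs1, Ndufa2 and Ndufb9 did not. In the 250 bases before the start, on either strand, the NRF1 core GCATGCG was found in 2 of the 30, Ndufa6 and Ndufa8, which is 6.67% against 3.43% of 27025 genes with a promoter and 6.01% of the 9946 of these that were tested. The ETS core CCGGAAG, the letters bound by factors such as GABPA, was found in 3 of the 30, Ndufb6, Ndufb7 and Ndufs3, which is 10% against 7.83% of all and 15.1% of tested genes. The YY1 core AAGATGG was found in 0 of the 30 and in 5.18% of all genes. No motif searched contains another, and the NRF1 core overlaps its own reverse complement. With any of the 3 motifs, 5 of 30 members (16.7%) had a match against 15.3% of all genes and 23.9% of tested genes. The members' share lay near that of all genes and below that of tested genes, and no test was made. Both members with the NRF1 core passed the test, in opposite directions. A match is a description of letters, not a site or a cause.

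The NADH module forms the tip of the matrix arm and was covered by 9 members. Its core subunits are Ndufv1, the flavoprotein that takes electrons from NADH, Ndufv2, an iron-sulfur protein beside it, and Ndufs1, the largest iron-sulfur subunit. None of the 3 passed the test. Ndufv1 was at 37.9 ± 3.42 CPM at day 4 (SD, n = 4) and 33 ± 2.78 at day 14 (n = 5), a log2 fold change of -0.20 ± 0.09 (SE), with an adjusted p of 0.114. Ndufv2 was at 46.9 ± 1.81 and 49.0 ± 5.20 CPM. Ndufs1, at 66.1 ± 2.77 and 60.2 ± 3.69 CPM, had the highest CPM of the members at day 4, with the longest transcript, 2590 bases.

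Of the accessory subunits of this module, Ndufv3 (chromosome 17, 31520115 to 31531326), which sits at the arm's tip, was at 30.8, 27.0, 30.7 and 30.5 CPM in the day 4 libraries and at 22.0, 25.4, 24.1, 22.3 and 23.3 CPM in the day 14 libraries. All day 14 libraries lay below all day 4 libraries, with day 4 replicate 2 the lowest of its group. Day 14 was lower by a log2 fold change of -0.35 ± 0.08, with an adjusted p of 0.00733. Ndufa7 (chromosome 17, 33824572 to 33838316), a matrix arm subunit, was at 24.9, 18.9, 20.6 and 24.6 CPM at day 4 and at 14.8, 14.7, 20.3, 16.4 and 16.1 CPM at day 14. Here the groups overlapped, because day 14 replicate 3 lay above day 4 replicate 2. The difference was nevertheless the largest of the lower calls, -0.44 ± 0.12 on the log2 scale (1.35-fold lower), with an adjusted p of 0.017. Ndufa2, a subunit with a thioredoxin fold, was at 36.5, 35.0, 38.3 and 44.1 CPM at day 4 and at 32.5, 28.7, 34.5, 32.3 and 33.5 CPM at day 14. The groups did not overlap, but day 4 replicate 2 and day 14 replicate 3 nearly met. Its log2 fold change of -0.25 ± 0.09 had an adjusted p of 0.0484, and it was past the threshold in 7 of 21 alternatives only.

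Ndufa6 (chromosome 15, 82350139 to 82354291), a subunit of the LYR-motif family, which bind the mitochondrial acyl carrier protein, went the other way. It was at 34.5, 33.1, 32.4 and 35.7 CPM at day 4 and at 41.8, 41.6, 37.8, 42.2 and 39.6 CPM at day 14. Every day 14 library lay above every day 4 library. The log2 fold change was 0.26 ± 0.07, with an adjusted p of 0.0178, and the promoter printed above with the NRF1 core is this gene's. Without day 4 replicate 3 the adjusted p was 0.0741. Among the remaining members of the module, Ndufs4, which holds the NADH module on the arm, was at 33.5 ± 0.995 and 30.7 ± 2.24 CPM with an adjusted p of 0.24, and the zinc-binding Ndufs6 was at 4.09 ± 0.823 and 3.76 ± 0.73 CPM with an adjusted p of 0.621.

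The ubiquinone module joins the NADH module to the membrane, and none of its 5 members passed the test, although all 5 log2 fold changes were negative (median -0.15). The largest was that of Ndufs7, the iron-sulfur protein that hands electrons to ubiquinone. Ndufs7 was at 19.3, 18.1, 23.6 and 29.0 CPM at day 4 and at 14.2, 12.6, 23.1, 15.0 and 16.8 CPM at day 14. Day 14 replicate 3 lay within the range of day 4 and the other day 14 libraries lay below it. The log2 fold change was -0.47 ± 0.18 (95% interval -0.82 to -0.12), with an adjusted p of 0.0658, and without day 14 replicate 3 it was -0.64 with an adjusted p of 0.00755. DESeq2's Wald test and limma-voom also put Ndufs7 past the threshold, with adjusted p-values of 0.0466 and 0.0399. The core subunits Ndufs8 (31.8 ± 4.18 and 27.8 ± 2.82 CPM) and Ndufs3 (7.95 ± 1.00 and 7.55 ± 1.17 CPM) and the accessory subunits Ndufa5 (17.3 ± 2.18 and 15.6 ± 3.02 CPM) and Ndufa9 (46.0 ± 1.69 and 43.5 ± 2.97 CPM) had adjusted p-values from 0.186 for Ndufs8 to 0.683 for Ndufs3. Over both modules of the matrix arm, 0 of 6 core members passed edgeR's test, with a median log2 fold change of -0.16. The 25 accessory members tested had a median of -0.15.

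The proximal membrane arm anchors the matrix arm, and 3 of its 7 tested members fell (42.9%, against 14.9% of all genes). Its median log2 fold change was -0.29, the lowest of the modules. With the GC offsets described below it was -0.22, against -0.19 in the NADH module. Ndufa3 (chromosome 7, 3617347 to 3620165), a small membrane subunit, was at 30.9, 31.3, 31.2 and 31.5 CPM at day 4 and at 23.3, 26.3, 25.0, 26.7 and 23.1 CPM at day 14. The day 4 libraries were the closest to each other of any member, with a coefficient of variation of 0.706%, and all day 14 libraries lay below them. The log2 fold change was -0.33 ± 0.08, with an adjusted p of 0.0071. Ndufa8 (chromosome 2, 36036324 to 36049338), a subunit of the intermembrane space with a disulfide-bonded fold, was at 30.2, 25.3, 27.7 and 32.2 CPM at day 4 and at 21.4, 21.6, 24.2, 22.8 and 22.4 CPM at day 14. The groups did not overlap. Its log2 fold change was -0.36 ± 0.09, with an adjusted p of 0.00984. Ndufa10 (chromosome 1, 92439486 to 92473825), which resembles nucleoside kinases, was at 36.1, 32.8, 35.6 and 37.5 CPM at day 4 and at 26.9, 32.8, 29.2, 29.2 and 26.8 CPM at day 14. Day 14 replicate 2 came up to the level of day 4 replicate 2 at the digits given, and the other day 14 libraries were lower. Its difference on the log2 scale was -0.29 ± 0.08, with an adjusted p of 0.0206, and it was 0.0581 without day 14 replicate 1.

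Ndufc1, a small membrane subunit of this arm, had the most negative log2 fold change of all members without passing the test. It was at 3.76, 4.65, 3.83 and 6.20 CPM at day 4 and at 2.79, 3.04, 3.21, 3.56 and 3.87 CPM at day 14. The groups overlapped, with day 14 replicate 5 above day 4 replicates 1 and 3. Its log2 fold change was -0.50 ± 0.19 (95% interval -0.86 to -0.14), with an adjusted p of 0.0591. Like Ndufs7, Ndufc1 passed under DESeq2 (adjusted p = 0.0402) and limma-voom (0.0483). Of the others, Ndufc2 was at 46.4 ± 3.90 and 43.8 ± 3.20 CPM (adjusted p = 0.477). Ndufa13, also known as Grim19, was at 26.8 ± 3.87 and 27.1 ± 3.72 CPM, a log2 fold change of 0.01 with a 95% interval from -0.23 to 0.25. Ndufa1 on X was at 33.9 ± 0.52 CPM at day 4 and 32.3 ± 2.01 at day 14 (n = 4 and 4), with an interval from -0.23 to 0.09. Ndufs5 was not tested, since it held only 5.09 to 23.2 counts per library, or 0.345 ± 0.0391 and 0.279 ± 0.0306 CPM.

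In the distal membrane arm, where the complex ends in antiporter-like proton pumps, 2 of 10 members fell (20.0%, against 14.9% of all genes). Ndufb9 (chromosome 15, 58933801 to 58939516), another LYR-motif subunit, was at 42.6, 42.6, 38.8 and 41.8 CPM at day 4 and at 32.0, 33.1, 32.3, 35.0 and 31.0 CPM at day 14. The groups were well apart, with every day 14 library below the lowest of day 4. The log2 fold change of -0.34 ± 0.07 had the lowest adjusted p of the members, 0.00386. Ndufb8 (chromosome 19, 44548571 to 44555442), a membrane subunit, was at 39.3, 35.0, 37.4 and 49.0 CPM at day 4 and at 26.3, 27.5, 34.3, 32.5 and 34.9 CPM at day 14. The groups met closely without overlapping, since day 14 replicate 5 came just under day 4 replicate 2, and day 4 replicate 4 was far above the rest. The log2 fold change was -0.37 ± 0.12 and the adjusted p 0.0334, which rose to 0.0954 without day 4 replicate 4, and the call was lost in 9 of 21 alternatives.

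Among the other 8 members of this arm, Ndufb7 came closest to the threshold, at 22.2 ± 4.16 and 17.2 ± 2.44 CPM, a log2 fold change of -0.37 ± 0.14 with an adjusted p of 0.0638, and 0.0497 under DESeq2. Ndufb10 (36.6 ± 3.82 and 33 ± 2.72 CPM), Ndufb6 (22.9 ± 2.09 and 20.5 ± 1.43 CPM) and Ndufb3 (21.7 ± 1.45 and 19.6 ± 1.39 CPM) had log2 fold changes of -0.15, -0.16 and -0.15, with adjusted p-values from 0.192 to 0.232. Ndufb4 (7.17 ± 0.656 and 6.90 ± 0.42 CPM), Ndufb2 (7.38 ± 0.80 and 7.43 ± 1.33 CPM) and Ndufb5 (39.3 ± 0.97 and 40.0 ± 2.15 CPM) lay between -0.05 and 0.03. The largest positive value without a call was that of Ndufb11 on X, which was at 18.6, 23.6, 24.9 and 27.7 CPM at day 4 and at 24.4, 24.8, 26.0 and 30.2 CPM in the 4 day 14 libraries used. These ranges overlapped, with day 4 replicates 1 and 2 below all day 14 libraries, and the log2 fold change of 0.15 ± 0.13 had an adjusted p of 0.397.

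Ndufa4 was long counted with complex I and is now regarded as a subunit of cytochrome c oxidase, complex IV. Here it counts among the members and in their sum, but in no module and not with complexes II to V. It had the highest level per transcript length of all members, 99.8 CPM per kb at day 4 and 111 at day 14. In CPM it was at 62.6, 63.6, 56.6 and 60.6 at day 4 and at 65.0, 71.3, 58.3, 76.7 and 65.9 at day 14. All but 1 of the day 14 libraries were above all day 4 libraries. A log2 fold change of 0.15 ± 0.09 did not pass, with an adjusted p of 0.211.

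**Figure D2:**
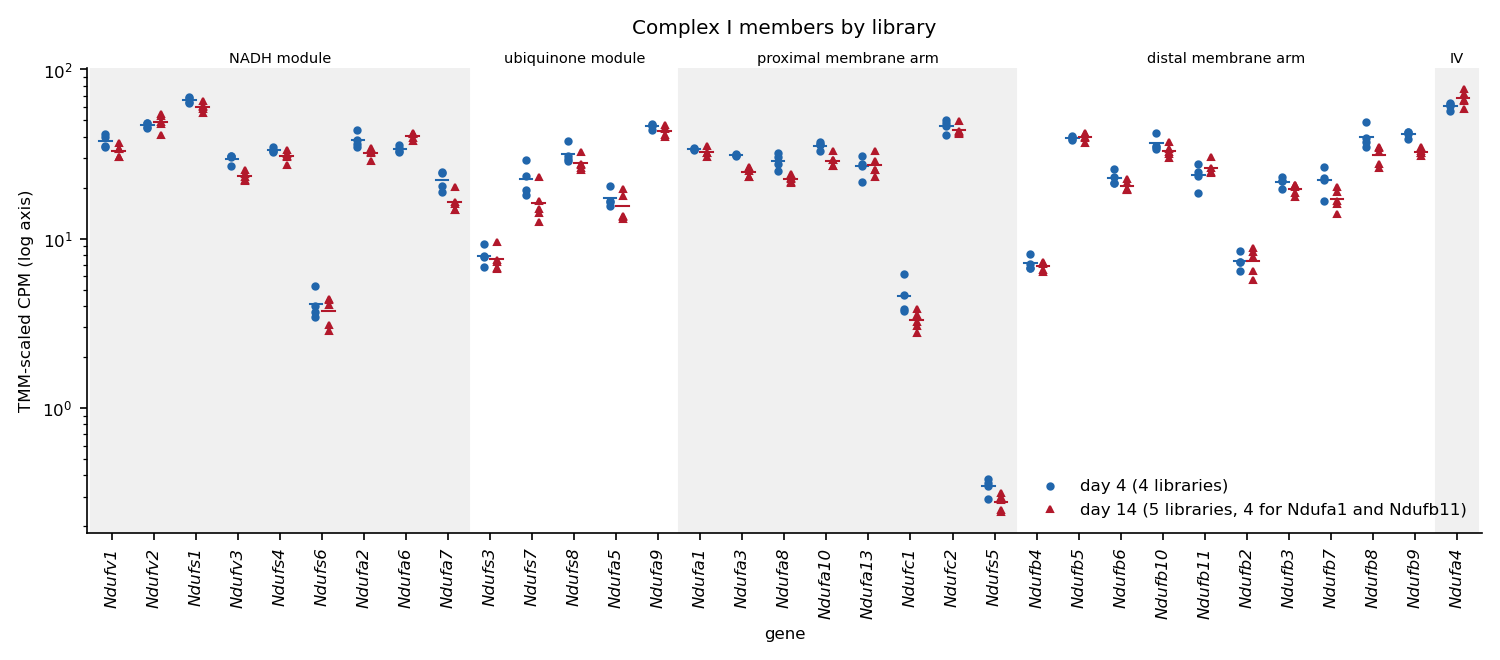
TMM-scaled CPM on a log axis (vertical) of each of the 33 members (horizontal, by module), with circles for day 4 libraries, triangles for day 14 libraries and short lines for group means. A group of 5 including Ndufc1 and Ndufs6 lies under 10 CPM, Ndufs5 lies under 1 CPM, and Ndufs1 and Ndufa4 have the highest means.

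Of the 32 tested members, 7 (21.9%) had all day 14 libraries below all day 4 libraries, against 12.7% of all genes, and these were the lower calls other than Ndufa7. Only Ndufa6 (3.12%) had all above, against 13.0% of all genes. The level was summed over the 31 members before the break of the truncated library, Ndufa4 included. This sum was 896, 889, 891 and 972 CPM at day 4 and 796, 827, 825, 861 and 824 CPM at day 14. The groups did not overlap, and the mean fell from 912 ± 40.2 to 827 ± 23.0 CPM, which is 9.35% lower. With total counts in place of TMM the sums were 916 ± 69.0 and 825 ± 28.3 CPM and overlapped. The decline was 7.52% in the NADH module, 11.8% in the ubiquinone module, 13.2% in the proximal and 12.8% in the distal membrane arm, and no test was made of these sums or of the differences between modules. With the GC offsets described below the declines were 7.48%, 7.68%, 9.29% and 8.54%, in the same order, and the groups then overlapped in all modules but the NADH module. With total counts they overlapped in the ubiquinone module and the proximal arm. The sum of 34 genes of complexes II to V before the break was 6.97% lower at day 14 with TMM, with overlap. With total counts that sum was 7.55% lower without overlap, and with GC offsets 3.72% lower with overlap. Single members had a median coefficient of variation of 9.13% at day 4 and 8.34% at day 14.

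**Figure D3:**
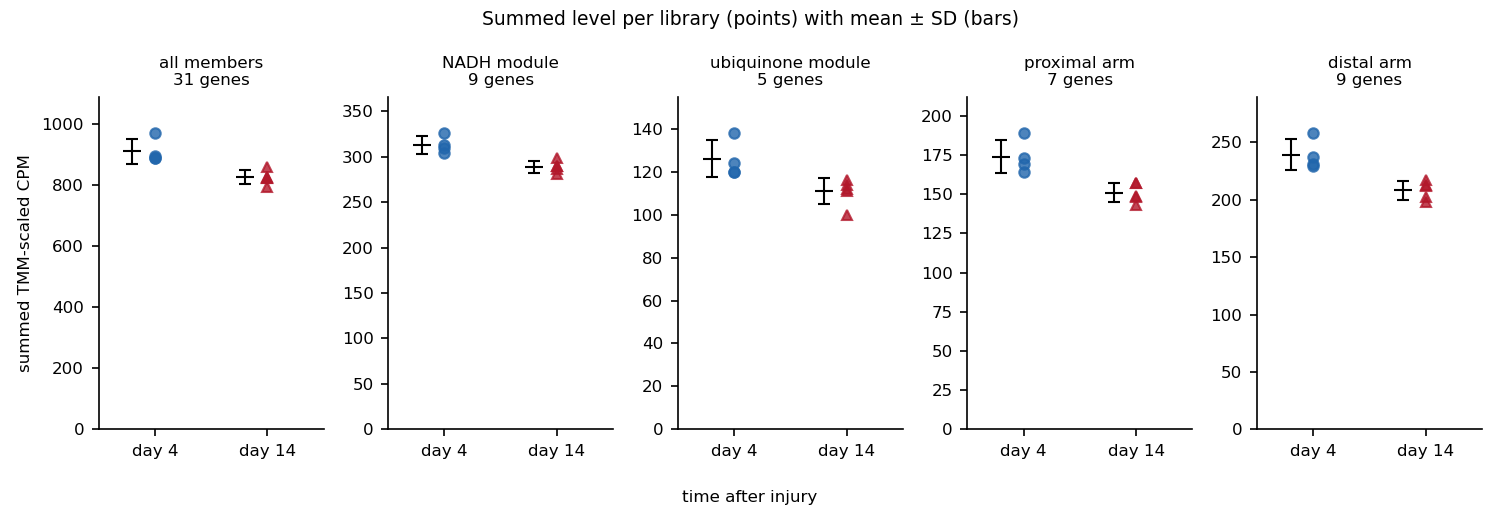
Summed TMM-scaled CPM per library (vertical axes, from 0) of the 31 members before the break and of each module, at day 4 (circles) and day 14 (triangles), with the mean ± SD beside the points. With this scaling the day 14 libraries lie below the day 4 libraries in each panel, by 7.52% to 13.2% of the mean in the modules.

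Levels of the members differed widely, and several of the lowest members have sequence that also occurs in other genes. For each member, the share of 50-base windows of its transcript that also occur in transcripts of other genes was counted (GENCODE vM21). Ndufs5, the lowest member, shared 41.2% of its windows with BC002163, and the latter was at 18.7 ± 1.79 CPM at day 4 and 15.1 ± 0.731 at day 14, a log2 fold change of -0.31 ± 0.09 with an adjusted p of 0.0232 (0.0587 with the GC offsets described below). BC002163 was looked up after the level of Ndufs5 had been seen. The share was 39.7% for Ndufs3, mostly with Gm12251, 37.0% for Ndufb4, with Ndufb4c, 33.5% for Ndufb2 and 14.6% for Ndufs6, with Ndufs6b. The 8 members of lowest CPM had a median share of 24.1%, with 5 of them over 10%. The 25 others had a median of 0.0%, with 6 of them over 10%. Ndufc1 (5.2%), Ndufa5 (0.0%) and Ndufb3 (6.7%) were among the 8 without a large share. Which of such copies a read was assigned to is not stated, so the levels and changes of members that share windows are uncertain.

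Overlapping genes on the same strand are a second source of doubt. Those on the opposite strand add to it, since the library kit does not mark the strand. Of the members called, Ndufb9 shared 23.4% of its windows and 201 exon bases with Gm49356, and Ndufb8 shared 13.5% and 134 bases with Gm20538, both on the same strand. Ndufa2 overlapped Tmco6 by 66 bases on the opposite strand. Of uncalled members, Ndufb6 shared 34.1% with Smim27, Ndufa13 28.5%, mostly with Tssk6, Ndufb11 17.5% and Ndufb5 16.2% with Mrpl47. In all, 16 of the 33 members shared no window, and 5 of the 9 called were among them, Ndufv3, Ndufa6, Ndufa3, Ndufa8 and Ndufa10.

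**Figure D4:**
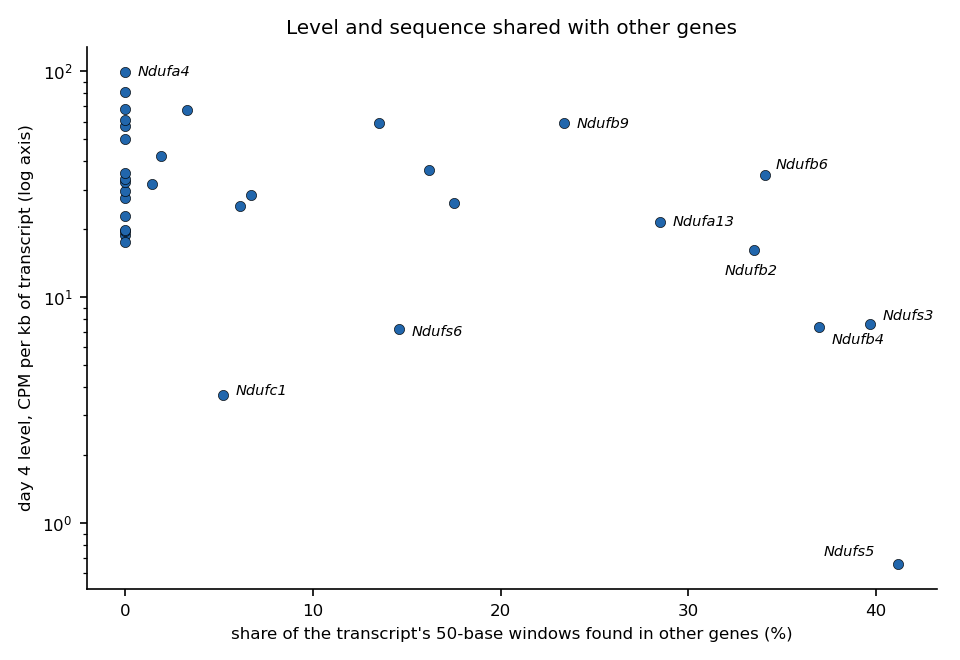
Level at day 4 in CPM per kb of transcript (log axis, vertical) against the share of the transcript's 50-base windows that occur in other genes (horizontal, percent), 1 point for each of the 33 members. Ndufs5 (41.2%), Ndufs3 (39.7%) and Ndufb4 (37.0%) combine a large share with a low level, while Ndufa4 has the highest level and no shared window.

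Base composition moved with the day. Among all genes of at least 5 CPM, those with a GC content of up to 47.1% had a median log2 deviation 0.14 higher at day 14 than at day 4, and those with a GC content from 53.3% were 0.142 lower, although the libraries of a day were not uniform. Day 4 replicate 2 deviated in the direction of most day 14 libraries (0.042 for the low and -0.062 for the high class), day 14 replicate 3 in that of most day 4 libraries (-0.103 and 0.074), and day 14 replicate 5 lay near 0 (-0.031 and 0.007). With an offset per library that removes this trend, an alternative chosen after seeing the data, 8 members were lower and 1 higher, against 15.9% lower and 17.3% higher of all genes, but only 4 of the 8 were the same: Ndufa7, Ndufa3, Ndufa8 and Ndufa10. Ndufv3 (adjusted p = 0.0529), Ndufb8 (0.0593), Ndufb9 (0.0745) and Ndufa2 (0.0749) no longer passed. Ndufs4 (log2 fold change -0.29, adjusted p = 0.00554), Ndufs1 (-0.20, 0.00843), Ndufc1 (-0.64, 0.0304) and Ndufs7 (-0.31, 0.0447) did, so that 2 of 6 core members were then lower. Ndufa6 was higher with the offset too, by 0.37 ± 0.07 with an adjusted p of 0.0021. The 16 members of higher GC content went from a median of -0.20 to -0.04, and the 16 of lower GC content from -0.14 to -0.16, with a median of -0.13 over all 32. The summed level of the 31 members was 900 ± 34.1 and 833 ± 23.5 CPM with the offset, 7.51% lower and without overlap.

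**Figure D5:**
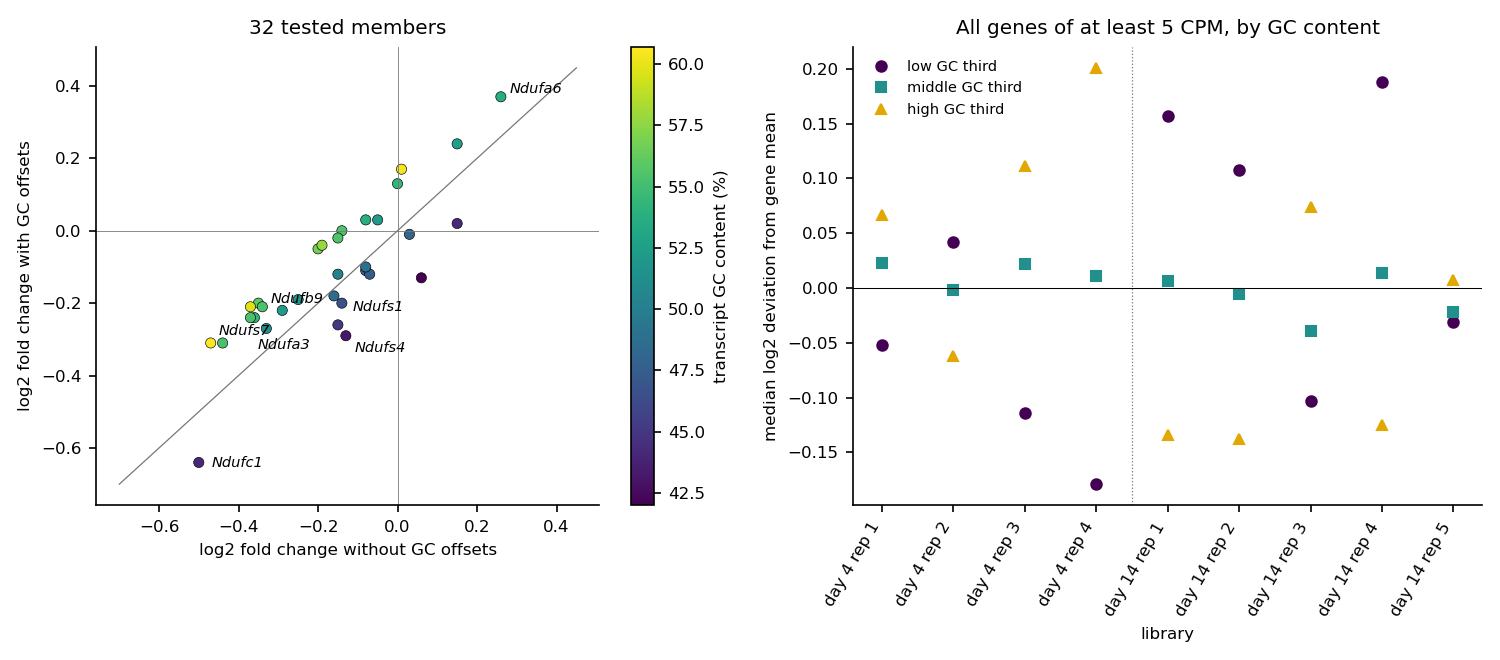
Left, the log2 fold change of each of the 32 tested members with GC offsets (vertical) against that without (horizontal), coloured by transcript GC content, with the line of equal values. Right, the median log2 deviation from the gene mean (vertical) in each of the 9 libraries for all genes of at least 5 CPM, in 3 classes of GC content with equal numbers of genes. GC-rich members lie above the line and GC-poor members below it, and the GC-poor class reads 0.14 higher at day 14.

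The count of calls moved with the libraries and the test used. With the 6 libraries of lowest total count alone (day 4 replicates 1 and 2, day 14 replicates 2 to 5), 1 member, Ndufb9, was lower (log2 fold change -0.39, adjusted p = 0.031) and 0 were higher. There 24 of 32 members still had a negative value, but the median log2 fold change was -0.11 against -0.15 with all libraries. The median standard error rose from 0.09 to 0.12. With log10 library size as a covariate 5 members were lower. Without day 14 replicate 1, 5 were lower, the fewest when 1 library was left out (5 to 10). DESeq2 called 11 lower and limma-voom 10. None of the 9 calls held in all 21 alternatives, and none of the 9 changed sign in any. The 5 calls lost in only 1 or 2 alternatives among the lower members were Ndufv3, Ndufa7, Ndufa3, Ndufa8 and Ndufb9.

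Among subunits outside the 33, Ndufa11, a membrane subunit near the joint of the arms, was lower: 16.6 ± 1.88 CPM at day 4 and 12.8 ± 1.65 at day 14, a log2 fold change of -0.37 ± 0.12 with an adjusted p of 0.0292. Its groups overlapped. Ndufa12 (adjusted p = 0.342) and the acyl carrier protein Ndufab1 (0.974) did not pass. Ndufab1 shared 31.2% of its windows with other genes, Ndufa12 26.2% and Ndufa11 12.5%, so their levels are uncertain too. Among 19 assembly factors, which build the complex and leave it, 1 was higher and 3 lower (15.8%, against 14.9% of all genes). Their median log2 fold change was -0.02. Ndufaf7, a mitochondrial methyltransferase, was higher (11.7 ± 0.399 to 14.1 ± 1.09 CPM, adjusted p = 0.0417, and 0.0528 with GC offsets). Ecsit fell from 6.63 ± 0.701 to 4.91 ± 0.457 CPM (adjusted p = 0.0244, and 0.0531 with GC offsets). Foxred1 and Aifm1, which lie beyond the break and were tested in 8 libraries, fell from 20.6 ± 0.864 to 16.7 ± 1.42 CPM (adjusted p = 0.0334) and from 25.2 ± 0.821 to 20.0 ± 1.55 CPM (0.0166).

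Of 12 tested genes of regulators, 3 were lower (25.0%, against 14.9% of all genes) and 0 higher. Ndufa4l2, a hypoxia-induced relative of Ndufa4 that is known to lower complex I activity, was at 3.68, 6.32, 4.12 and 3.32 CPM at day 4 and at 0.774, 0.988, 1.07, 0.741 and 1.46 CPM at day 14. All day 14 libraries were far below all of day 4. This was a log2 fold change of -2.13 ± 0.26, with an adjusted p of 9.4e-05. Bnip3, a mitophagy receptor and hypoxia target, fell from 96.7 ± 19.3 to 23.5 ± 3.48 CPM (-2.04 ± 0.14 on the log2 scale, with an adjusted p of 1.32e-06). Nrf1, which encodes the transcription factor of the motif searched above, fell from 29.9 ± 1.68 to 23.7 ± 1.08 CPM (-0.34 ± 0.08, adjusted p = 0.00638). Gabpa (82.0 ± 8.19 and 96.3 ± 12.7 CPM, adjusted p = 0.12) and Bnip3l (132 ± 19.3 and 130 ± 16.5 CPM, 0.928) did not pass. Tfam, Yy1, Gabpb1, Esrra, Pprc1, Dnajc15 and Ppargc1b did not pass either, and Ppargc1a had too few counts to be tested.

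The other respiratory complexes give the setting. Of 40 genes of complexes II to V, 7 were lower (17.5%) and 0 higher, against 14.9% and 16.1% of all genes. Their median log2 fold change was -0.08, with 30 negative values. The lower ones were Sdha, Sdhb and Sdhc of complex II, Uqcrc1 and Cyc1 of complex III, Cox4i1 of complex IV and Atp5o of complex V. With GC offsets Cox4i1 (adjusted p = 0.111) and Atp5o (0.245) no longer passed, Uqcrc2 of complex III (0.027) was lower, and Uqcrh of complex III (0.0486) was higher. Complex II, succinate dehydrogenase, had 3 of 4 genes lower, while complex V, the ATP synthase, had 1 of 16. Sdhb, the iron-sulfur subunit, fell from 63.4 ± 2.26 to 49.1 ± 3.28 CPM (-0.37 ± 0.07, adjusted p = 0.00267). Of 76 mitochondrial ribosomal protein genes, 7 were lower (9.21%) and 2 higher. Their median was the same as that of the complex I members, -0.15, with 64 negative values. Of 72 cytosolic ribosomal protein genes, 0 were lower and 9 higher, with a median of 0.14, and with GC offsets 16 were higher, with a median of 0.19. The differences between these lists were not tested.

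The authors' deposited table of normalized values holds all 33 members. For the truncated day 14 library it gives 1014 for Ndufa1 and 749.3 for Ndufb11, both of which have an estimated count of 0 there. The means of the 8 other libraries in the authors' deposited table are 1022 and 771.7, so these entries are near the level of the other libraries and were not used.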

How the data were processed

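The deposited count table holds estimated counts per gene symbol, not normalized, of which a mean of 17.2% per library are not whole; they were rounded. A second deposited table gives normalized values, a signal on the scale of scaled counts, for 13673 genes, and was used only to describe 2 members. The build mm10 and the tools DESeq2, Partek 6.6, SAMtools 1.4, HISAT2 2.1.0 and CASAVA 1.8 are named, per the submitters' processing notes; their roles are not given in the sources used here. Per the labels' protocols, cells were also stained for CD115, and libraries came from the TruSeq kit v2.

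Tests used edgeR 4.0.16 in R 4.3.3 (TMM, filterByExpr, glmQLFit with robust dispersion, glmQLFTest, two-sided) and Benjamini-Hochberg adjustment over 13322 genes, threshold 0.05. Genes up to the break were fitted on 9 libraries and those beyond it on 8. Before the low-count filter, 1503 of the 18303 genes lay beyond the break. Standard errors come from the F statistic, and 95% intervals are 1.96 standard errors wide each way. These intervals use the normal distribution, so they are approximate and narrower than the F test implies. The method was tested on simulated counts, with set changes larger than those of the members called and without a GC trend. Positions came from RefSeq GRCm38.p6 (17103 genes by symbol, 1098 by an older name, 102 unmatched), transcript length and GC content from GENCODE vM21 (98.7% matched; the shortest best-supported principal transcript). Summed levels leave out genes beyond the break. The GC offset is a loess curve (span 0.5) per library.

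The members and lists were chosen with earlier results of these data known. 1 listed gene outside the members is not reported here. Every member is accounted for. Library values are given for those called, the most abundant per length and the 2 largest uncalled changes each way. Called genes of 3 lists are named. Ndufb7, Sdhb, BC002163, Bnip3l and members under alternatives were picked with their values in view. So were the named genes of complexes II to V and of the macrophage markers. Alternatives were scaling by total counts, RLE or the upper quartile, DESeq2 1.42.0, limma-voom (limma 3.58.1), no filter, 5 CPM in 4 libraries, non-robust dispersion, library size as a covariate, 1 fit of all genes, the 6 shallower libraries, each library left out and, added later, GC offsets.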

Additional observations from a re-analysis of the deposited data

Results flagged for a closer look

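In 3 of 66 groups checked (33 members, 2 days), 1 library lay far from the others by Dixon's criterion; chance flags about 1 in 20 groups. Ndufv3 was at 27.0 CPM in day 4 replicate 2 and at 30.5 to 30.8 in the other day 4 libraries, and the gene was lower at day 14. Ndufc2 was at 49.4 CPM in day 14 replicate 4 and at 41.8 to 43.1 in the other day 14 libraries. Ndufb10 was at 42.3 CPM in day 4 replicate 4 and at 34.1 to 35.2 in the other day 4 libraries. Neither Ndufc2 nor Ndufb10 passed the test between the days.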

How the results depend on the processing

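No paired analysis was possible because the labels give the groups no shared replicate numbers. The 8 lower members were 5 with library size as a covariate, 1 with the 6 shallower libraries and 5 to 10 with 1 library left out; the 1 higher member was 0 with the shallower libraries and 0 to 1 with 1 left out (0 without day 4 replicate 3). The members' median log2 fold change was -0.19 to -0.14 with 1 library left out and -0.11 with the shallower libraries. All genes had 2150 higher and 1985 lower, against 1030 and 1042 in the shallower libraries, and 1593 to 2459 higher and 1442 to 2367 lower with 1 left out. The 1 higher assembly factor was 0 with total counts, no low-count filter, library size as a covariate, GC offsets or the shallower libraries, and 0 to 1 with 1 left out. The 3 lower assembly factors were 1 with the covariate, 1 with all genes and all 9 libraries in 1 fit, 0 with the shallower libraries and 0 to 3 with 1 left out. Of complexes II to V, the 7 lower genes were 4 with the covariate, 0 with the shallower libraries and 3 to 9 with 1 left out, and the 0 higher were 1 with GC offsets and 0 to 1 with 1 left out. Calls were lost for Ndufa2 in 14 and Ndufb8 in 9 of 21 alternatives, and 8 uncalled members changed sign in at least 1. The causes were not tested. With the shallower libraries the members' median standard error was larger (0.12 against 0.09) and their median log2 fold change was nearer 0. Ndufs5 and Ndufab1 have counts near the lower limit of what this depth can measure. Both also share windows with other genes (41.2% and 31.2%), so their low levels are uncertain.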
